A study of Mus musculus with 40 samples.

Results

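A set of 9 acute phase genes is described here in mouse brown adipose tissue: Itih4, Fgl1, Hp, Saa3, Orm1, Lcn2, Serpina3n, Cp and Apoe. These 9 genes were taken from the 52636 genes of the deposited count table by symbol. They were chosen by measured values, since Itih4 and Fgl1 had been seen to be higher with Jag blockade at 15 h, so the values at 15 h are given as a description and carry no test. Each of the 9 symbols matched 1 gene, and all 9 passed the filter on low counts that 17079 genes passed.

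Acute phase proteins are plasma proteins whose production rises during infection and injury. Most are made by hepatocytes, where interleukin 6 acts through its receptor chains, the JAK kinases and STAT3, and interleukin 1 and tumour necrosis factor act through NF-kB and the C/EBP factors. Fat depots also transcribe several of them, haptoglobin and serum amyloid A3 among them, and neutrophils carry lipocalin 2 in their granules.

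The study gave male C57BL/6 mice a single intraperitoneal dose of antibody and collected brown adipose tissue for RNA sequencing. The series text gives an age of 10 to 12 weeks and the sample text 10 to 14 weeks. Control mice received 40 mg/kg of an anti-ragweed isotype antibody, and Jag antibody mice received 20 mg/kg each of antibodies that block Jag1 and Jag2, which are ligands of the Notch receptors. Tissue was collected at 15 h, 5 d or 7 d. A further pair of 7 d groups, 1 for each antibody, also received the thyroid hormones T4 at 1 µg/g and T3 at 0.05 µg/g every day from day 2. Each of the 8 groups held 5 mice, numbered 1 to 5 in the titles of the control groups and 6 to 10 in those of the Jag antibody groups. The antibodies act on the whole animal, so the design does not separate an action on the fat from one elsewhere. P-values measure the spread between these mice.

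Total counts ran from 12217623 to 36511893 per library. All 10 brown adipocyte markers were detected in each library, with summed levels of 8219 to 73088 CPM. CPM is a count scaled to its library's total multiplied by that library's TMM factor, from the TMM scaling in edgeR. The factors ran from 0.647 in control mouse 4 at 7 d to 1.28 in control mouse 2 at 15 h. They did not overlap between control mice at 7 d without hormone (0.647 to 0.926) and with it (1.01 to 1.18). Hepatocyte markers summed to 0.845 to 55.6 CPM over the 40 libraries, and the albumin gene Alb had a median of 5.5 counts and at most 761. Skeletal muscle markers ranged from 0.878 to 175926 CPM, with all 5 control mice at 5 d between 1018 and 175926. Neutrophil markers reached 2595 CPM in control mouse 2 at 15 h against 1.94 in the lowest library.

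Per kilobase of exon, haptoglobin (Hp), which binds free haemoglobin, was the most abundant of the 9, with a median of 1207 CPM per kb over the 40 libraries and a range of 453.6 to 4638. Apoe, the apolipoprotein that directs lipoprotein uptake, followed at 638 CPM per kb, and Orm1, the plasma carrier protein alpha-1-acid glycoprotein, at 82.6. Serpina3n, a serine protease inhibitor, had a median of 13.0, Cp, the copper-carrying ferroxidase ceruloplasmin, 6.84, and Itih4, an inter-alpha-trypsin inhibitor heavy chain, 3.46. Lcn2, the siderophore-binding lipocalin 2, had 0.890, Fgl1, a liver-secreted fibrinogen-like protein that binds LAG3, 0.508, and Saa3, a serum amyloid A made outside the liver, 0.264. The order of the medians therefore placed Hp, Apoe and Orm1 far above the other 6 genes on this per-length scale. Below, levels are log2 CPM with a prior count of 2, which compares 1 gene between mice and not genes with each other.

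In GENCODE M21 coordinates on GRCm38, Itih4 lies at chr14:30886476-30902353 on the plus strand, Fgl1 at chr8:41191434-41215156 on the minus strand and Hp at chr8:109575128-109579172 on the minus strand. Saa3 lies at chr7:46711998-46715700 and Apoe at chr7:19696109-19699188, both on the minus strand. Orm1 is at chr4:63344560-63348163, Serpina3n at chr12:104406729-104414329 and Cp at chr3:19957054-20009145, all on the plus strand, and Lcn2 at chr2:32384633-32388252 on the minus strand. All 9 are protein coding. The 3′ end of Cp overlaps Hps3 (19995945 to 20035315) on the opposite strand, and whether counting used the strand is not given in the sources used here, so Cp counts are uncertain. Orm1, Saa3 and Serpina3n belong to families of related genes, and reads could have been split between members where their sequences match.

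RefSeq promoter entries on GRCm38.p6 existed for 6 of the 9 genes. The 250 bases before the RefSeq start are shown for Itih4 and Serpina3n, the only members whose windows held any of the 6 motifs searched on both strands. Capitals mark the matches, and the sequences read 5′ to 3′ along the plus strand, which is the coding strand of both genes.
Itih4, chr14:30886226-30886475: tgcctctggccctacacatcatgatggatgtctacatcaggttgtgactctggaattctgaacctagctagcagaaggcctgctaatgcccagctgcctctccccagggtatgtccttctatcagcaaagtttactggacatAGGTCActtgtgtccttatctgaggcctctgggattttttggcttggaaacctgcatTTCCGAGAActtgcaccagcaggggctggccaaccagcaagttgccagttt
Serpina3n, chr12:104406458-104406707: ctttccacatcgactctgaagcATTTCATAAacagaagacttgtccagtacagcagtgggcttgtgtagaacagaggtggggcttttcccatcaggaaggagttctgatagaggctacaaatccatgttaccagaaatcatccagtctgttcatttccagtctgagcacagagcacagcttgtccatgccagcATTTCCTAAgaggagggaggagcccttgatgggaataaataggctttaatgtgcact
In the Itih4 window, TTCCGAGAA at -51 to -43 matches the STAT motif TTCNNNGAA and AGGTCA at -108 to -103 matches the nuclear receptor half-site. In the Serpina3n window, ATTTCATAA at -228 to -220 and ATTTCCTAA at -57 to -49 match the C/EBP motif TTNNGNAAT on the minus strand. The matched stretches do not overlap each other. Of 32851 promoter windows of this length, 7.02% held the STAT motif, 14.0% the half-site and 10.2% the C/EBP motif. The other motifs searched were NF-kB (7.25% of windows), the direct repeat bound by thyroid hormone receptors (0.0152%) and the RBPJ motif GTGGGAA (5.42%). These letter matches describe the windows and do not show binding.

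At 15 h, Itih4 and Fgl1 were higher in all 5 Jag antibody mice than in any control mouse, and Saa3 and Serpina3n had positive but overlapping differences. The rule chose the genes on this contrast, so the values are a description. Groups that did not overlap were 2 of 9 members, against 1.56% of all genes tested that did not overlap in the higher direction, and nothing is read from that count. The log2 fold change was positive for 8 of the 9 members, against 7690 of all 17079 genes tested. Its median was 0.54 over the members and -0.04 over all genes tested.

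Itih4 was 3.09, 4.15, 3.91, 2.66 and 4.31 log2 CPM in control mice 1 to 5 and 6.86, 5.03, 6.29, 5.34 and 6.18 in Jag antibody mice 6 to 10. The lowest Jag antibody mouse lay above the highest control. The log2 fold change was 2.34 (SE 0.51), 5.07-fold, and it ran from 2.06 to 2.52 when any 1 of the 10 mice was left out. Fgl1 was 1.83, 2.14, 1.76, 0.71 and 0.71 in the controls and 4.04, 2.34, 4.15, 3.27 and 3.04 in the Jag antibody mice. These groups were also apart, with 2.34 in Jag antibody mouse 7 nearest to 2.14 in control mouse 2, and Fgl1 rested on as few as 27 counts in control mice 4 and 5. Its log2 fold change was 2.00 (SE 0.38), with 1.78 to 2.22 when 1 mouse was left out.

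Lcn2 divided the 15 h mice in another way. It was 7.33 and 7.11 in control mice 2 and 3 and 7.55 and 7.27 in Jag antibody mice 8 and 10, while the other 6 mice ranged from 1.32 to 4.41. These 4 mice therefore stood apart in Lcn2 whichever antibody they had received. The same 4 mice had the highest Hp levels, at 12.60, 12.77, 12.86 and 12.86, against 10.93 to 12.17 in the other 6. They also had the highest summed neutrophil markers, 2595 and 226 CPM in the control mice and 166 and 146 CPM in the Jag antibody mice, against 4.54 to 58.6 in the rest. Macrophage markers were highest in control mice 2 and 3, at 3368 and 2726 CPM, against 348 to 847 in the other 8. Brown adipocyte markers separated the antibody groups at 15 h as Itih4 and Fgl1 did, with sums of 8219 to 23584 CPM in the controls and 24716 to 29971 CPM in the Jag antibody mice. The part of these cells in the levels was not tested. In bulk tissue, more cells of a type and more RNA per cell cannot be told apart.

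**Figure D1:**
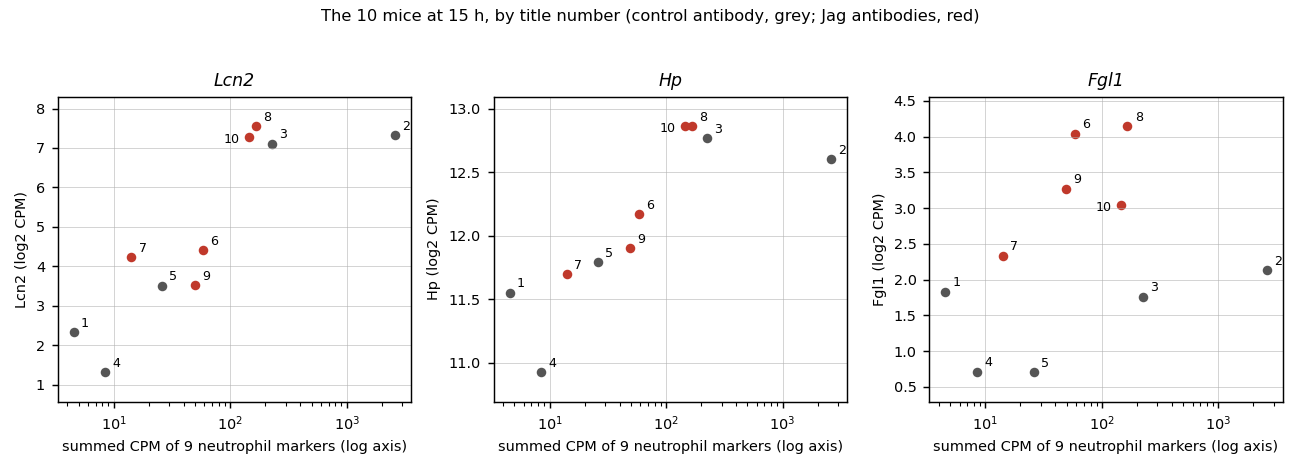
Levels of Lcn2, Hp and Fgl1 (log2 CPM, vertical axes) in the 10 mice at 15 h against the summed CPM of 9 neutrophil markers (horizontal log axis), each point 1 mouse with its title number, grey for control and red for Jag antibodies. Control mice 2 and 3 and Jag antibody mice 8 and 10 lie at the top right for Lcn2 and Hp, while for Fgl1 the 5 red points lie above the 5 grey points.

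With all 10 mice, the log2 fold change of Lcn2 at 15 h was 0.31 (SE 0.88) and ran from -0.30 to 1.04 with 1 mouse left out. Without control mice 2 and 3, an alternative added after the data had been seen that keeps the 2 high Jag antibody mice, it was 3.68. Leaving out only the 2 high controls raises the difference of any gene that is high in them, so such a rise was fixed in advance. Saa3, which was 2.57 and 2.24 in control mice 2 and 3 and -2.70 to 0.65 in the other controls, moved from 2.40 (SE 1.16) to 4.37. Hp moved from 0.30 (SE 0.30) to 0.92, Serpina3n from 1.22 (SE 0.73) to 2.21 and Cp from 0.54 (SE 0.29) to 0.93. Itih4 moved from 2.34 to 2.58 and Fgl1 from 2.00 to 2.38. The rule used the values of these 2 genes in this contrast, so the size of their moves is a description only. Orm1 was 0.39 (SE 0.32) with all mice and 0.11 without control mice 2 and 3, and Apoe -0.01 (SE 0.32) and -0.25.

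Saa3 at 15 h was highest in Jag antibody mice 8 and 10, at 4.90 and 4.48, and between 1.30 and 3.03 in mice 6, 7 and 9. Its counts were low in the controls, from 1 to 132. Serpina3n was 8.01 and 7.54 in Jag antibody mice 10 and 8 and 7.11 in control mouse 2, and 4.75 to 6.73 in the other 7. Hepatocyte markers were near 0 in these libraries: they summed to 0.845 to 2.34 CPM at 15 h, and 4 to 9 of the 10 were at 0 in each mouse.

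**Figure D2:**
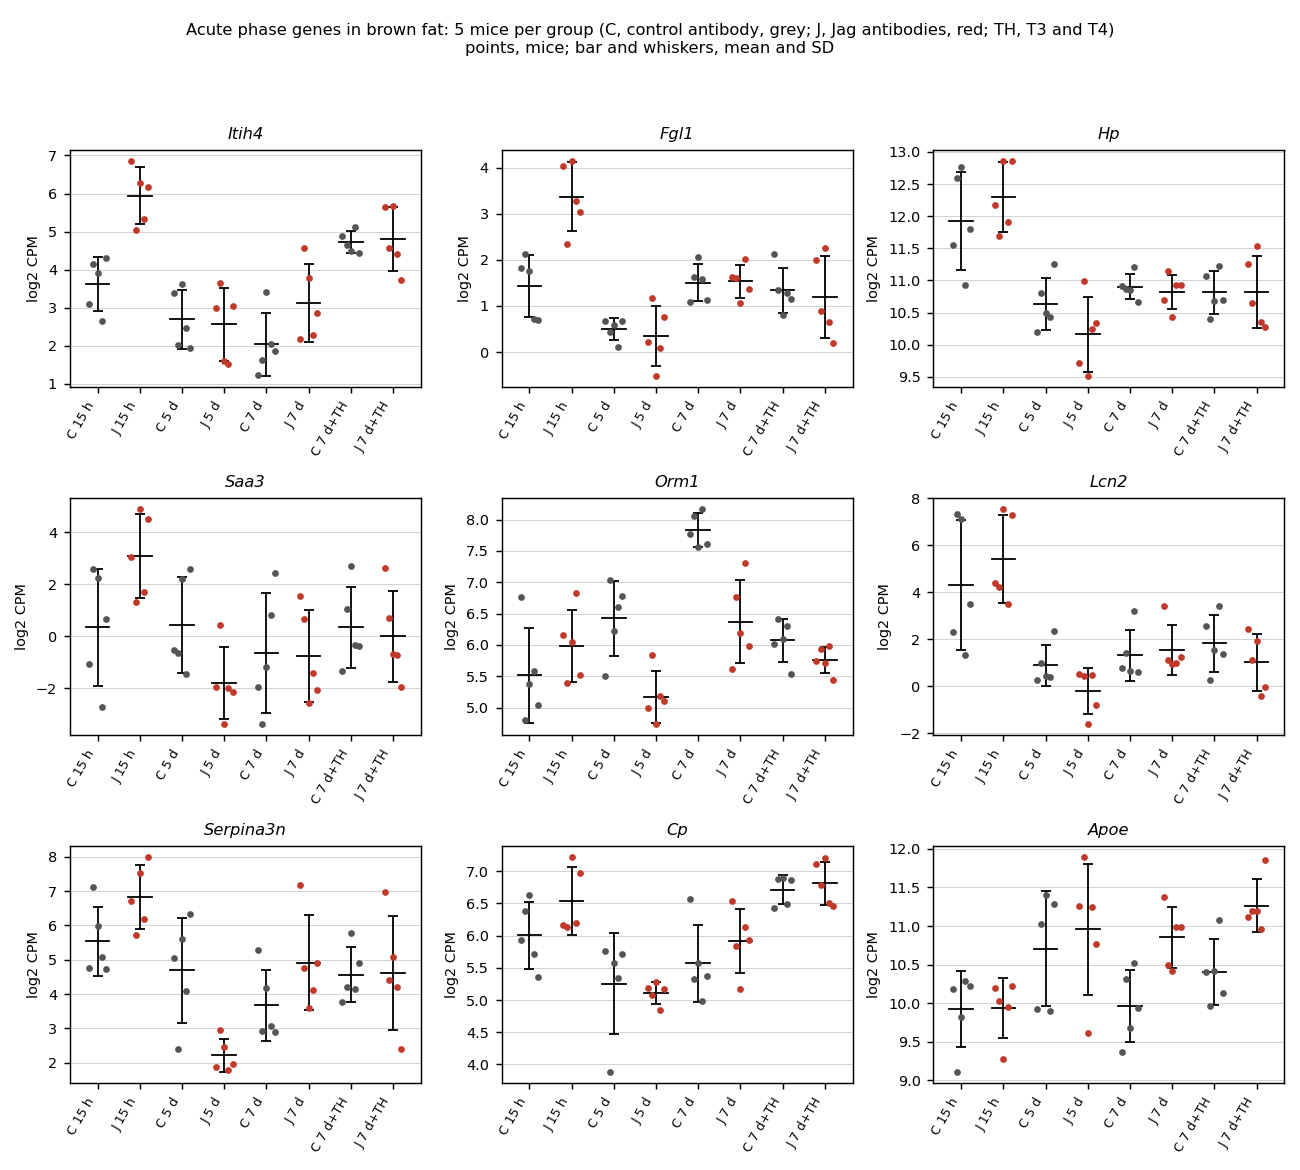
Level of each of the 9 genes (log2 CPM) in the 8 groups of 5 mice, with points for mice and a bar with whiskers for the mean and SD, grey for control and red for Jag antibodies, TH for T3 and T4. The Jag antibody mice at 15 h are the highest group for 6 genes, while Orm1 is highest in control mice at 7 d, Cp and Apoe in hormone-treated Jag antibody mice.

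At 5 d, Orm1 and Serpina3n were lower with the Jag antibodies, and none of the 9 genes was higher. The 2 of 9 members lower compare with 5.93% of all genes tested, and the 0 of 9 higher (0 with DESeq2, 0 at an unadjusted p under 0.05) with 2.09%. The median log2 fold change of the members was -0.43 against 0.04 over all genes.

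Orm1 was 5.50, 7.04, 6.21, 6.60 and 6.78 log2 CPM in control mice 1 to 5 and 4.99, 5.84, 4.73, 5.19 and 5.10 in Jag antibody mice 6 to 10. The groups overlapped through control mouse 1 and Jag antibody mouse 7. Orm1 fell by 1.30 on the log2 scale (SE 0.32, edgeR adjusted p = 0.0130). The call held in each of the 10 fits that left out 1 mouse, with the adjusted p at most 0.0455. With a muscle score as a covariate Orm1 was at -1.54 (adjusted p = 0.0432). Muscle marker sums did not overlap between the antibody groups, so that fit cannot separate muscle from the antibodies.

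Serpina3n was 5.06, 2.39, 5.61, 4.08 and 6.33 in the controls and 1.88, 2.95, 2.46, 1.80 and 1.98 in the Jag antibody mice. Control mouse 2 lay among the Jag antibody mice, and the other 4 controls lay above all of them. Serpina3n fell by 2.95 (SE 0.78, edgeR adjusted p = 0.0199). Muscle markers summed to 3044, 1018, 25116, 23219 and 175926 CPM in control mice 1 to 5. Mouse 2 was lowest and mouse 5 highest in both, while mouse 4 had more muscle markers than mouse 1 but less Serpina3n. The Jag antibody mice at 5 d had 0.878 to 43.9 CPM of muscle markers, and 6 of the 8 muscle markers were lower with the antibodies. White adipocyte markers also did not overlap, at 196 to 1283 CPM in the controls and 58.5 to 165 CPM in the Jag antibody mice, and 2 of 3 were lower by the test. Fibroblast markers summed to 551 to 2083 CPM against 529 to 795 CPM, and 2 of 6 were lower. With the muscle score as a covariate Serpina3n was at -2.03 (adjusted p = 0.364), and the call was also lost with limma on log2(FPKM + 1) (adjusted p = 0.0820), without control mouse 5 and without each of Jag antibody mice 6, 9 and 10 (adjusted p at most 0.0741). The muscle marker sums did not overlap between the groups, so the fit with the muscle score cannot separate muscle from the antibodies. The part of muscle, white adipocytes and fibroblasts in the Orm1 and Serpina3n differences was not tested.

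Saa3 was -2.87 (SE 1.30, edgeR adjusted p = 0.177) at 5 d and is named for its size only, since it did not pass. It had 10 to 131 counts in the controls and 0 to 20 in the Jag antibody mice. Lcn2 was -1.16 (SE 1.01) and Hp -0.43 (SE 0.30). The remaining 4 genes, Itih4, Fgl1, Cp and Apoe, lay between -0.27 and 0.28. Itih4 and Fgl1, which had stood apart at 15 h, were at -0.08 (SE 0.49) and -0.05 (SE 0.39).

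At 7 d, Orm1 was again lower with the Jag antibodies, and the groups did not overlap. It was the only 1 of the 9 that passed, against 1.29% of all genes that were lower by the test and 1.6% whose groups did not overlap in that direction. Orm1 was 7.77, 8.06, 7.56, 8.17 and 7.61 log2 CPM in the controls and 5.62, 6.77, 6.19, 7.31 and 5.98 in the Jag antibody mice. It fell by 1.36 (SE 0.32, edgeR adjusted p = 0.0192). The call was lost when only the 2 groups compared entered the fit (-1.36, adjusted p = 0.0697) and without control mouse 2 or 4 or Jag antibody mouse 6, 8 or 10, where the adjusted p reached 0.0705. Control 7 d was the highest group for Orm1, and it was the 1 group whose mice did not overlap the next one in the order of means, control 5 d.

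Apoe was 9.37, 10.31, 9.68, 10.52 and 9.94 in the controls and 11.38, 10.49, 10.42, 10.99 and 10.99 in the Jag antibody mice at 7 d. Jag antibody mice 7 and 8 lay at the level of control mouse 4. The log2 fold change was 0.87 (SE 0.33, edgeR adjusted p = 0.134), and with length and GC offsets per library it was 1.04 (adjusted p = 0.00698). Itih4 was 1.62, 2.05, 1.86 and 1.22 in 4 controls, 3.43 in control mouse 3, and 2.17 to 4.57 in the Jag antibody mice. Its log2 fold change was 1.18 (SE 0.50, adjusted p = 0.180), without control mouse 3 it was 1.75 (adjusted p = 0.0455), and without Jag antibody mouse 7 it was 0.67. Serpina3n was 7.19 in Jag antibody mouse 6 and 3.59 to 4.90 in the other 4, against 2.89 to 5.28 in the controls, at 1.54 (SE 0.74, adjusted p = 0.234) and 0.42 without mouse 6. Mouse 6 also had the highest muscle and macrophage marker sums of its group, 51059 and 1111 CPM. Hp, Fgl1, Cp, Lcn2 and Saa3 lay between -0.66 and 0.31 and did not pass.

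In mice that also received T3 and T4, none of the 9 genes passed the test between antibodies (0 of 9 with edgeR, 1 at an unadjusted p under 0.05, 0 with DESeq2), against 1.14% of all genes. The gene under the unadjusted threshold was Apoe. Apoe was 10.41, 9.96, 10.42, 11.08 and 10.13 in the hormone-treated controls and 11.12, 11.19, 11.20, 10.96 and 11.85 in the hormone-treated Jag antibody mice. Only control mouse 4 reached into the range of the Jag antibody mice. The log2 fold change was 0.85 (SE 0.32, edgeR adjusted p = 0.241), and 0.94 with length and GC offsets (adjusted p = 0.0182). Itih4 was 0.25 (SE 0.48) and Orm1 -0.33 (SE 0.32) in this comparison.

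**Figure D3:**
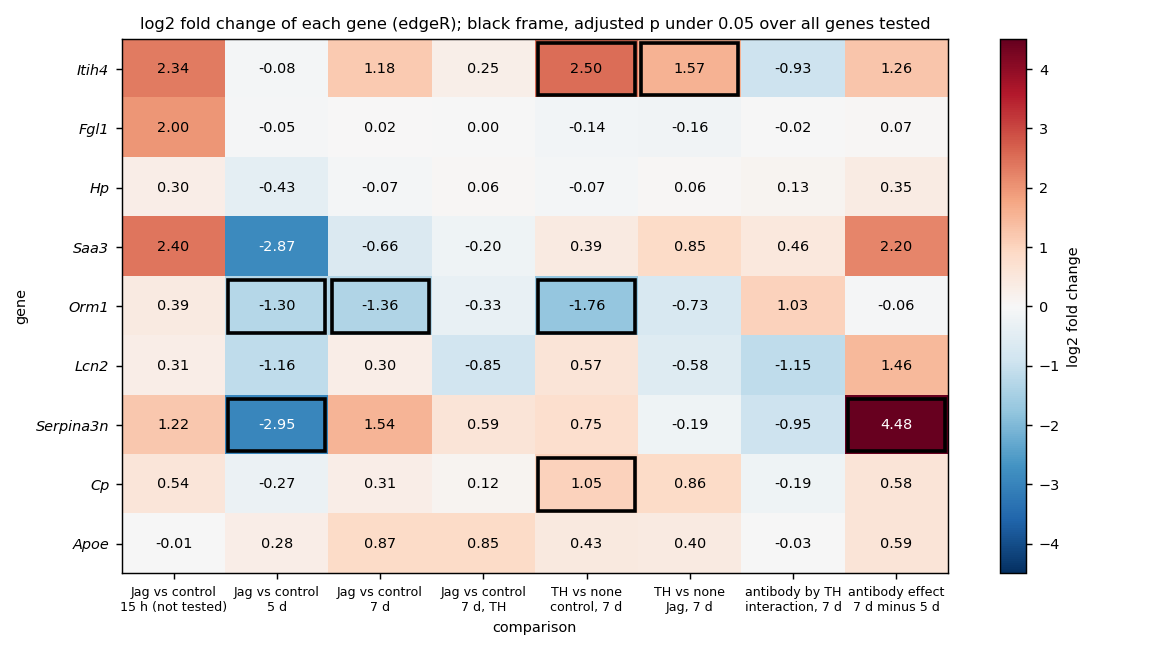
Log2 fold change of each gene (vertical axis) in each comparison (horizontal axis), coloured from blue (lower) to red (higher), with a black frame where the edgeR adjusted p over all genes was under 0.05. The 15 h column carries no test. Frames mark Orm1 in 3 columns, Itih4 and Serpina3n in 2 each and Cp in 1.

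T3 and T4 in control mice changed 3 of the 9 genes: Itih4 and Cp rose and Orm1 fell. The hormones changed 43.2% of all genes tested, 20.3% higher and 22.9% lower, so 2 of 9 higher and 1 of 9 lower are near the background. The untreated arm is the same 5 control mice as in the antibody comparison at 7 d, so the 2 comparisons share their controls. The hormone comparison in Jag antibody mice likewise shares its untreated mice with the antibody comparison at 7 d.

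Itih4 was 1.22, 1.62, 3.43, 2.05 and 1.86 log2 CPM in control mice 1 to 5 without hormone and 4.88, 4.65, 4.49, 5.13 and 4.45 in control mice 1 to 5 with it. The hormone-treated mice lay close together and all above the untreated mice. The log2 fold change was 2.50 (SE 0.52, edgeR adjusted p = 0.000299), 5.65-fold, and it passed in all 11 other settings and in all 10 fits that left out 1 mouse. With limma on log2(FPKM + 1) it was 1.07, a scale that understates the change of low genes.

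Cp was 6.57, 5.32, 5.58, 4.99 and 5.38 without hormone and 6.44, 6.88, 6.90, 6.49 and 6.86 with it. Untreated mouse 1 lay among the hormone-treated mice. Cp rose by 1.05 (SE 0.30, edgeR adjusted p = 0.00497). With length and GC offsets the change was 0.65 (adjusted p = 0.0490), and with a myeloid score as covariate 0.73 (adjusted p = 0.0495).

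Orm1 was 7.56 to 8.17 without hormone, the values given for 7 d, and 6.02, 6.41, 6.09, 6.30 and 5.54 with it. The groups did not overlap, as for Itih4. Orm1 fell by 1.76 (SE 0.33, edgeR adjusted p = 0.000108), and by 0.82 with length and GC offsets (adjusted p = 0.0163). Non-overlapping groups held 14.6% of all genes in the higher direction and 15.2% in the lower. The related gene Orm3 fell by 1.53 (SE 0.39, adjusted p = 0.00194), a call lost with length and GC offsets, and Orm2 was at -0.78 (SE 0.48, adjusted p = 0.191) with 3 to 47 counts per library. Unlike Orm1, Orm3 at 7 d was at -0.22 (SE 0.38, adjusted p = 0.770) between antibodies; the difference between the genes was not tested.

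**Figure D4:**
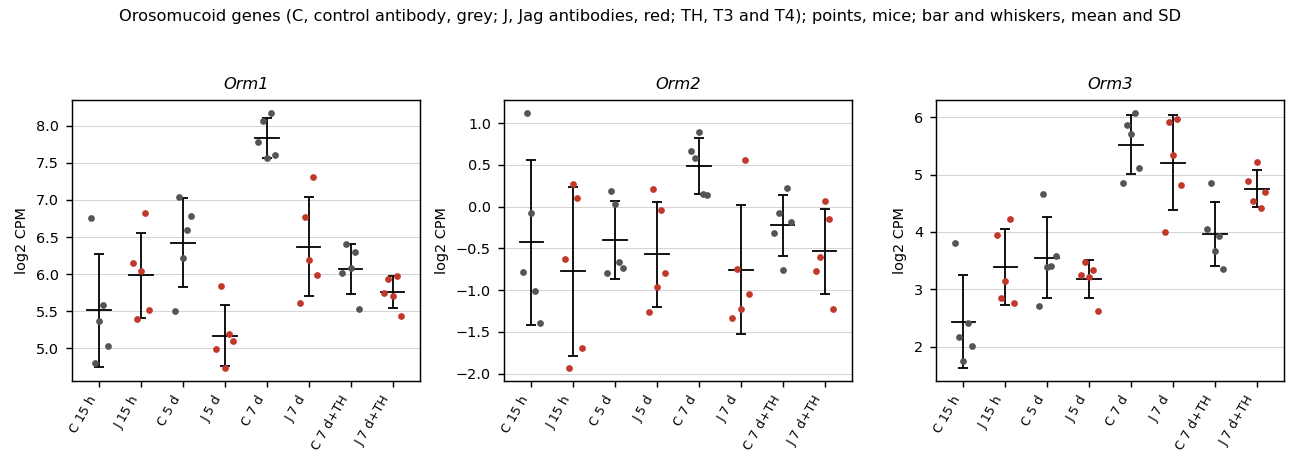
Levels of the orosomucoid genes Orm1, Orm2 and Orm3 (log2 CPM) in the 8 groups of 5 mice, points for mice and a bar with whiskers for the mean and SD. The 5 control mice at 7 d lie between 7.56 and 8.17 for Orm1, and the Jag antibody and hormone-treated groups at 7 d lie lower; for Orm3 the 2 groups at 7 d without hormone overlap.

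Markers of several cell types moved with the hormones in control mice. Macrophage markers summed to 210 to 519 CPM without hormone and 778 to 1574 with it, and 6 of 8 were higher by the test. Brown adipocyte markers summed to 32621 to 73088 CPM without and 10260 to 16597 with it, and 6 of 10 were lower. Fibroblast markers summed to 391 to 636 CPM without and 728 to 1702 with it, and 3 of 6 were higher. Endothelial markers summed to 327 to 667 CPM without and 665 to 939 with it, and 3 of 5 were higher and 1 lower. With the myeloid score as covariate Itih4 was at 2.08 (edgeR adjusted p = 0.00456) and Orm1 at -1.52 (adjusted p = 0.000728). Myeloid marker sums did not overlap between these groups, at 112 to 274 CPM without hormone and 551 to 1111 with it. Fits with this score therefore cannot separate myeloid cells from the hormones in control mice. The part of myeloid, brown adipocyte, fibroblast and endothelial RNA was not tested. Hormone-treated control mouse 1 had 55.6 CPM of hepatocyte markers against 1.5 to 12.7 in the other 4, and its Itih4 level of 4.88 lay within their range of 4.45 to 5.13.

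In Jag antibody mice, the hormones raised Itih4 alone of the 9 genes, against 4.29% of all genes that were higher. Itih4 was 2.17, 4.57, 3.78, 2.28 and 2.86 in mice 6 to 10 without hormone and 5.65, 4.56, 5.68, 4.42 and 3.72 with it. Untreated mouse 7 lay among the treated mice. The log2 fold change was 1.57 (SE 0.49, edgeR adjusted p = 0.0392), and the call was lost with no filter, with only the groups compared, with the myeloid covariate and without untreated mouse 6, 9 or 10 or treated mouse 6, 7 or 8 (adjusted p at most 0.114). Cp was 0.86 (SE 0.30, adjusted p = 0.0596) and Orm1 -0.73 (SE 0.32, adjusted p = 0.134). Fgl1 and Hp lay between -0.16 and 0.06 in both antibody groups with hormone, close to 0 on this scale beside standard errors of 0.30 to 0.38.

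The antibody effect did not differ by the test between mice with and without hormone for any of the 9 genes (0 of 9 with edgeR, 1 at an unadjusted p under 0.05, 0 with DESeq2), and 0.00586% of all genes passed. The gene under the unadjusted threshold was Orm1, at 1.03 (SE 0.45, adjusted p = 0.378): its antibody difference was -1.36 without hormone and -0.33 with it. For Itih4 the same difference of differences was -0.93 (SE 0.69, adjusted p = 0.542) and for Cp -0.19 (SE 0.42, adjusted p = 0.851).

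Between 5 d and 7 d the antibody effect on Serpina3n differed, from -2.95 to 1.54 (0.42 without Jag antibody mouse 6 at 7 d), a difference of 4.48 (SE 1.08, edgeR adjusted p = 0.0378). It was 1 of 9 members, against 1.17% of all genes in the higher direction. The call held in 3 of 11 other settings and 10 of 20 fits with 1 mouse left out, and it was 2.97 (adjusted p = 0.653) with the muscle score as covariate and 3.41 (adjusted p = 0.215) without Jag antibody mouse 6 at 7 d. Among the other acute phase genes, C4b (5.24), Agt (7.32) and Serping1 (1.63) also passed, and each call was lost with the muscle covariate (3.58, 2.88 and 0.65). With that covariate, the genes passing this interaction fell from 220 to 0. The losses, that of Serpina3n included, are therefore not particular to these genes.

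The wider acute phase list held 30 genes, of which 18 were tested. At 5 d, 4 of the 18 fell with the Jag antibodies (8 fell with DESeq2) and none rose by either tool, against 5.93% of all genes lower and 2.09% higher. The 4 were the complement genes C4b (-3.23, SE 0.72) and Cfb (-2.32, SE 0.66), the lipopolysaccharide-binding protein Lbp (-1.60, SE 0.41) and the C1 inhibitor Serping1 (-1.15, SE 0.28), with adjusted p of 0.00794 to 0.0277. C4b was 2.69 to 8.13 log2 CPM in the controls and 2.60 to 4.19 in the Jag antibody mice. Serping1 was 6.49 to 8.11 against 5.97 to 6.76. With the muscle score as covariate all 4 calls were lost, with log2 fold changes of -2.13 for C4b, -1.46 for Cfb, -0.56 for Lbp and -0.36 for Serping1 and adjusted p of 0.225 to 0.644. The muscle marker sums did not overlap between the antibody groups at 5 d, so this fit cannot separate muscle from the antibodies. With it, 89 of all genes tested passed at 5 d, against 1369 without it. The list's median was -0.82 against 0.04 over all genes tested. At 7 d between antibodies, 0 of the 18 passed with edgeR, 4 had an unadjusted p under 0.05 and 2 passed with DESeq2. Over all 17079 genes these numbers were 427 (2.5%), 3504 and 858.

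At 15 h, 3 of the 18 tested genes, C3, C4b and Serping1, were higher in all 5 Jag antibody mice than in any control. They are named after their values were seen, and 1.56% of all genes tested did not overlap in that direction. This contrast chose the members, so nothing is read from the count. The log2 fold change was positive for 12 of the 18, against 7690 of all 17079 genes tested. In the other lists it was positive for 0 of 5 cytokine ligands, 0 of 7 receptors and 2 of 10 transducers and factors. It was positive for 0 of 6 feedback genes and 3 of 11 receptors and partners of the member proteins. C3, the central complement component, was 8.10 to 9.46 in controls and 9.49 to 10.26 in Jag antibody mice. Serping1 was 5.36 to 6.26 against 6.38 to 6.94. The log2 fold changes were 1.18, 0.73 and 0.92 for C3, C4b and Serping1. With the hormones in control mice, 3 of the 18 rose, Serpina3g by 2.20, Lbp by 1.82 and the heavy chain gene Itih5 by 0.82, and Orm3 fell, against 20.3% of all genes higher and 22.9% lower. The Serpina3g call was lost with the myeloid covariate and the Itih5 call with length and GC offsets. In Jag antibody mice with hormone Lbp alone rose, by 1.33 (SE 0.41, adjusted p = 0.0320), a call lost in 4 of 11 other settings, against 4.29% of all genes higher. Saa1 and Crp, with at most 65 and 13 counts in any library, were not tested, and Saa2, at 0 in 13 libraries, passed in no comparison.

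The cytokine side was described from fixed lists as well. Of 5 tested ligands of 7, Lif alone passed, at 5 d (-2.16, SE 0.70, adjusted p = 0.0491), against 5.93% of all genes lower there. The Lif call was lost in 4 of 9 other settings, with adjusted p of up to 0.576 (muscle covariate), and held in 3 of 10 fits with 1 mouse left out. Il6 was at 0 in 13 libraries and passed in no comparison. At 15 h Il6 had 355 and 141 counts in control mice 2 and 3, 52 and 25 in Jag antibody mice 8 and 10, and 2 to 19 in the other 6, so the 4 mice with high Lcn2 also had the highest Il6. Socs3, the feedback inhibitor that IL-6 signalling induces, followed the same 4 mice, at 6.78 and 5.70 log2 CPM in the controls and 4.14 and 3.96 in the Jag antibody mice against 1.79 to 3.13 in the rest. Socs3 and Cebpd passed in no comparison.

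All 7 cytokine receptors were tested, and 6 rose with the hormones in control mice, led by Tnfrsf1b (2.53, SE 0.53) and the IL-6 receptor Il6ra (2.13, SE 0.42), then Il1r1 (1.57, SE 0.41) and Osmr (1.42, SE 0.43). In Jag antibody mice the hormones raised Lifr alone (1.16, SE 0.23, adjusted p = 0.00134), against 4.29% of all genes higher. Of 10 transducers and factors, 5 rose with the hormones in control mice, among them Stat3 (1.18, SE 0.30) and Jak2 (0.96, SE 0.28), and Cebpb fell by 1.01 (SE 0.30). The Stat3, Cebpb and Osmr calls were lost with length and GC offsets, and the Jak2 and Osmr calls with the myeloid covariate. In the feedback list, Il4ra (1.66, SE 0.47) alone of 6 rose, a call also lost with the myeloid covariate. The list medians were 1.42 for the receptors and 0.60 for the transducers, against 0.04 over all genes. In this comparison 43.2% of all genes passed, 20.3% higher and 22.9% lower. Between antibodies at 7 d, 0 of the 7 receptors passed with edgeR, 3 had an unadjusted p under 0.05 and 1 passed with DESeq2. Over all 17079 genes these numbers were 427 (2.5%), 3504 and 858.

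Receptors and partners of the member proteins were measured in the same mice. With the hormones in control mice, 6 of 11 rose and 1 fell, against 20.3% of all genes higher and 22.9% lower. The haemoglobin-haptoglobin receptor Cd163 rose by 2.28 (SE 0.69), the apolipoprotein E receptors Lrp8 by 3.86 (SE 0.85) and Lrp1 by 1.77 (SE 0.36), and the iron exporter Slc40a1, which works with ceruloplasmin, by 1.79 (SE 0.28). Lag3, the receptor of Fgl1, fell by 1.65 (SE 0.34, adjusted p = 0.000248). In Jag antibody mice the hormones raised Slc40a1 by 1.55 (SE 0.28, adjusted p = 0.000455) and Lrp8 by 2.32 (SE 0.77, adjusted p = 0.0499), the last call being lost in all 10 fits with 1 mouse left out. Of all genes, 4.29% were higher in that comparison. The Lrp8 call in control mice was lost with limma on FPKM values. Between antibodies at 7 d, 0 of the 11 passed with edgeR, 5 had an unadjusted p under 0.05 and 0 passed with DESeq2. Over all 17079 genes these numbers were 427 (2.5%), 3504 and 858.

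Within groups, some of the members varied together from mouse to mouse. Deviations from the group means were compared over 40 mice for all 36 pairs of members, with two-sided permutation tests within groups and Benjamini-Hochberg adjustment over the pairs. Pearson correlations of 11 pairs passed, all positive, and 9 of them passed by Spearman correlation too. Hp and Lcn2 had r = 0.81 and rho = 0.79 (permutation p = 1e-05 for each, the smallest that 100000 resamples can give, adjusted p = 0.00018). Serpina3n and Cp had r = 0.79 and rho = 0.80 with the same permutation p-values. Fgl1 and Hp had r = 0.67 and rho = 0.67 (permutation p = 0.00026 and 0.00018, adjusted p = 0.00297 and 0.00216).

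These 3 pairs gave r = 0.76, 0.81 and 0.62 without the 2 mice farthest from the median of the first-named gene. Mice far out only in the second gene stayed in. Over the 30 mice of the later groups r was 0.66, 0.79 and 0.73. Itih4 and Fgl1 had r = 0.55 and rho = 0.52 (permutation p = 0.00077 and 0.0025, adjusted p = 0.00396 and 0.0147), and r = 0.57 without the 15 h mice. Saa3 with Lcn2 and Saa3 with Hp had r = 0.59 and 0.55 with all mice and 0.37 and 0.32 without the 15 h mice, so these rested in part on that time. Orm1 and Apoe were in none of the 11 pairs.

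**Figure D5:**
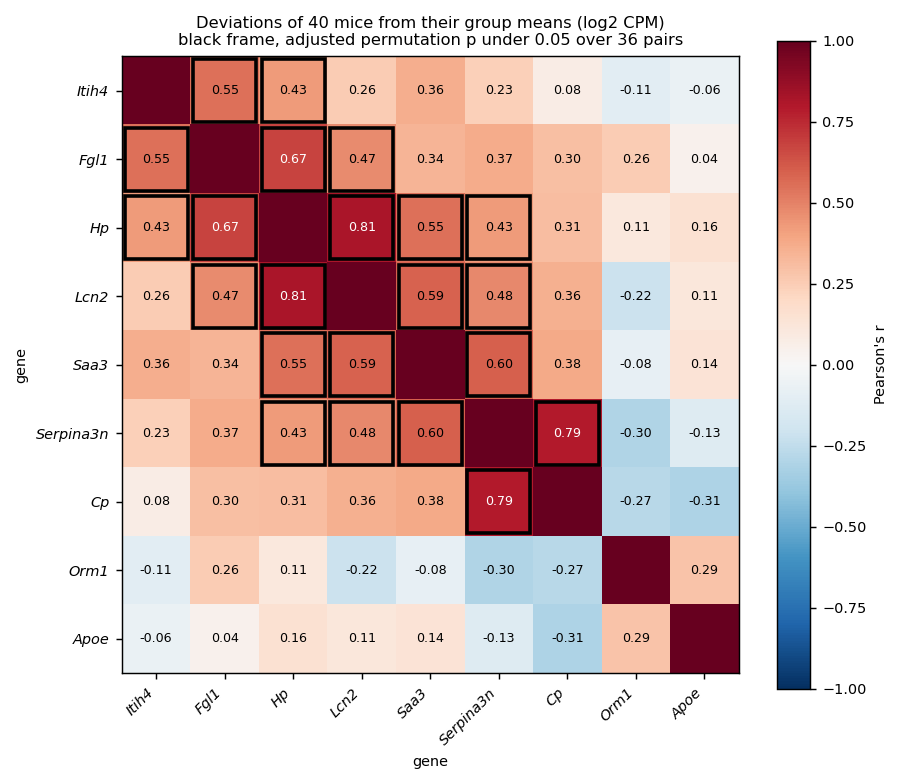
Pearson's r between the deviations of 40 mice from their group means (log2 CPM) for each pair of the 9 genes (both axes), from blue for -1 to red for 1, with a black frame for an adjusted permutation p under 0.05 over 36 pairs. The highest values are 0.81 for Hp with Lcn2 and 0.79 for Serpina3n with Cp, and Orm1 and Apoe have no frame.

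Among 12139 genes with a mean of at least 1 log2 CPM, the levels most like Itih4 over the 40 libraries, by Pearson's r, were those of Gimap4 (0.70), Layn (0.69), Trim25 (0.69), Gbp3 (0.68) and Arrb1 (0.68). For Fgl1 they were Hp (0.79), Lcn2 (0.72), Dnajc3 (0.69), Wdpcp (0.67) and Ccdc25 (0.67). Libraries share group, depth and tissue make-up, so these values are descriptions. Of the deviations from group means, r was 0.39 for Itih4 with Gimap4 and 0.67 for Fgl1 with Hp.

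In the order of group means, Itih4 was highest in Jag antibody mice at 15 h (5.94 ± 0.74 SD, n = 5), then in the hormone-treated Jag antibody mice (4.80) and the hormone-treated control mice (4.72). The hormone-treated control mice stood clear of the next group, control 15 h (3.62). Each other step in the order of Itih4 was between groups that overlapped. For Fgl1, Jag antibody mice at 15 h (3.37) stood clear of the next group, and the other 7 groups, from 0.35 to 1.53, overlapped from step to step. For Hp, Saa3, Lcn2, Serpina3n, Cp and Apoe every neighbouring pair of groups overlapped. Hp and Lcn2 were highest in the 2 groups at 15 h, at 12.30 and 11.93 for Hp and 5.40 and 4.32 for Lcn2, with Jag antibody mice first in each.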

How the data were processed

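RNA was total RNA of brown adipose tissue, read on an Illumina HiSeq as single-end 50 bp reads, per the labels' protocols. The submitters' processing notes name GSNAP and limma; the genome build, the counting program and strand use are not given in the sources used here. The authors deposited raw counts per Ensembl gene and a table of FPKM values, both for all 40 libraries. Symbols and coordinates came from GENCODE M21, which held 52489 of the 52636 genes.

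The 9 members, the gene lists and the marker lists were chosen with earlier results of these data known. Counts were fitted with edgeR 4.0.16 in R 4.3.3 (filterByExpr, TMM scaling, robust quasi-likelihood F test) in 1 model of 8 group means, and p-values were adjusted by Benjamini-Hochberg over 17079 genes with a threshold of 0.05. A gene passed, rose or fell where its adjusted p was under 0.05. The alternatives were DESeq2 1.42.0, RLE size factors, no filter, only the groups compared, muscle or myeloid scores as covariates, limma 3.58.1 on log2(FPKM + 1) and log2(FPKM + 0.1), per-library length and GC offsets, a replicate block and leaving out each mouse. For 15 h, where the members were chosen, these and the fit without control mice 2 and 3 were added after seeing the data and give values only. All members are named; of each list, at most the 4 largest changes that passed in a comparison are named, beside Saa1, Saa2, Orm2, Crp, Il6, Socs3, Stat3, Cebpb, Cebpd and Alb. No library repeated another of its group: over 80 pairs, chi-square divided by its degrees of freedom was at least 18.3. Labels give no batch. The edgeR script was tested on simulated data.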

Additional observations from a re-analysis of the deposited data

Results flagged for a closer look

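In 3 of the 72 combinations of gene and group, 1 mouse lay far from the other 4, where chance alone gives about 3.6. The Lcn2 level of Jag antibody mouse 6 at 7 d was 3.43 log2 CPM, and the nearest of the others was 1.25. This mouse also had the highest muscle and macrophage marker sums of its group, 51059 and 1111 CPM; their part in the level was not tested. The Cp level of control mouse 2 at 5 d was 3.88, and the nearest was 5.34. The Apoe level of hormone-treated Jag antibody mouse 10 at 7 d was 11.85, and the nearest was 11.20.

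The antibody effect on Serpina3n differed between 7 d and 5 d by 4.48 on the log2 scale (edgeR adjusted p = 0.0378), with Serpina3n lower in the Jag antibody mice at 5 d and not passing the test at 7 d. The muscle marker sums at 5 d were 1018 to 175926 CPM in the control mice and 0.878 to 43.9 in the Jag antibody mice. Their part in the 5 d difference was not tested.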

How the results depend on the processing

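The Itih4 rise and the Orm1 fall with hormone in control mice, and the Orm1 fall at 5 d, kept their direction and passed the test in every alternative run. With RLE size factors no count of genes or members moved by over 1.5 times. Counts that did move are given by setting, beside 1369, 427 and 194 genes for the antibodies at 5 d, 7 d and with hormone, 7378 and 1622 for hormone in control and Jag antibody mice, and 1 and 220 for the interaction of antibody and hormone and that of 7 d minus 5 d. With DESeq2, the genes passing numbered 858 for the antibodies at 7 d, 449 for the antibodies with hormone, 9 for the interaction of antibody and hormone and 964 for the 7 d minus 5 d interaction, and the members passing numbered 2 for hormone in Jag antibody mice. With no filter on low counts, the genes passing numbered 837 for the antibodies at 5 d, 191 for the antibodies at 7 d, 117 for the antibodies with hormone, 990 for hormone in Jag antibody mice, 0 for the interaction of antibody and hormone and 63 for the 7 d minus 5 d interaction, and the members passing numbered 0 for hormone in Jag antibody mice and 0 for the 7 d minus 5 d interaction. With only the groups compared in the fit, the genes passing numbered 431 for the antibodies at 5 d, 53 for the antibodies at 7 d, 694 for the antibodies with hormone, 2782 for hormone in Jag antibody mice, 0 for the interaction of antibody and hormone and 2 for the 7 d minus 5 d interaction, and the members passing numbered 0 for the antibodies at 7 d and 0 for the 7 d minus 5 d interaction. With the muscle score as covariate, the genes passing numbered 89 for the antibodies at 5 d, 0 for the interaction of antibody and hormone and 0 for the 7 d minus 5 d interaction, and the members passing numbered 1 for the antibodies at 5 d and 0 for the 7 d minus 5 d interaction. With the myeloid score as covariate, the genes passing numbered 730 for the antibodies at 7 d, 417 for the antibodies with hormone and 81 for the 7 d minus 5 d interaction, and the members passing numbered 0 for the 7 d minus 5 d interaction. With limma on log2(FPKM + 1), the genes passing numbered 505 for the antibodies with hormone, 36 for the interaction of antibody and hormone and 15 for the 7 d minus 5 d interaction, and the members passing numbered 1 for the antibodies at 5 d, 2 for hormone in Jag antibody mice and 0 for the 7 d minus 5 d interaction. With limma on log2(FPKM + 0.1), the genes passing numbered 415 for the antibodies with hormone, 28 for the interaction of antibody and hormone and 11 for the 7 d minus 5 d interaction, and the members passing numbered 0 for the 7 d minus 5 d interaction. With length and GC offsets, the genes passing numbered 0 for the interaction of antibody and hormone, and the members passing numbered 2 for the antibodies at 7 d, 1 for the antibodies with hormone and 2 for hormone in Jag antibody mice. At an unadjusted p under 0.05, the settings with 0 genes for the interaction of antibody and hormone held 1942 to 2816 genes, and the muscle covariate left 1238 for the 7 d minus 5 d interaction. Where members passing fell to 0, 1 to 3 members had an unadjusted p under 0.05. Cp passed for hormone in Jag antibody mice with DESeq2, with only the groups compared and with limma on log2(FPKM + 1) (adjusted p = 0.0348, 0.0299 and 0.0301), and Lcn2 passed there with the myeloid covariate (-2.15, adjusted p = 0.0292). Apoe passed with length and GC offsets in all 4 comparisons at 7 d, at 1.04 and 0.94 for the antibodies and 0.81 and 0.71 for hormone. Where the text names no cause for these changes, the cause was not tested.

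Signs changed only for member differences that had not passed or, at 15 h, were not tested. There Apoe was positive, at up to 0.075, with no filter, with either limma fit and with length and GC offsets. With the muscle score as covariate, the sign changed to give Fgl1 0.0047 for the antibodies with hormone, Apoe 0.041 for the interaction of antibody and hormone and Orm1 0.20 for the 7 d minus 5 d interaction. With the myeloid score as covariate, the sign changed to give Fgl1 0.024 for the antibodies at 5 d, Fgl1 -0.061 for the antibodies at 7 d, Lcn2 -0.012 for the antibodies at 7 d, Saa3 -1.53 for hormone in control mice, Lcn2 -1.34 for hormone in control mice, Serpina3n -0.21 for hormone in control mice, Hp -0.38 for hormone in Jag antibody mice, Saa3 -0.66 for hormone in Jag antibody mice, Fgl1 0.027 for the interaction of antibody and hormone, Fgl1 -0.085 for the 7 d minus 5 d interaction and Orm1 0.032 for the 7 d minus 5 d interaction. With limma on log2(FPKM + 1), the sign changed to give Hp -0.0047 for the antibodies with hormone. With limma on log2(FPKM + 0.1), the sign changed to give Hp -0.0048 for the antibodies with hormone and Saa3 -0.054 for the interaction of antibody and hormone. With length and GC offsets, the sign changed to give Itih4 0.05 for the antibodies at 5 d, Fgl1 -0.064 for the antibodies at 7 d, Hp 0.10 for the antibodies at 7 d, Hp 0.41 for hormone in control mice, Serpina3n 0.0025 for hormone in Jag antibody mice, Hp -0.028 for the interaction of antibody and hormone and Orm1 0.13 for the 7 d minus 5 d interaction.

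Leaving out 1 mouse in turn, the genes passing ranged from 385 to 2726 for the antibodies at 5 d, 5 to 968 for the 7 d minus 5 d interaction, 144 to 848 for the antibodies at 7 d, 0 to 2 for the interaction of antibody and hormone, 1048 to 1912 for hormone in Jag antibody mice and 80 to 232 for the antibodies with hormone. The members passing ranged from 1 to 2 for the antibodies at 5 d, 0 to 1 for the 7 d minus 5 d interaction, 0 to 2 for the antibodies at 7 d and 0 to 1 for hormone in Jag antibody mice. The log2 fold changes whose sign turned in at least 1 such fit were as follows. For the antibodies at 15 h, which carry no test, the ranges were Lcn2 -0.30 to 1.04 and Apoe -0.15 to 0.12. For the antibodies at 5 d, the ranges were Itih4 -0.40 to 0.19 and Fgl1 -0.31 to 0.13. For the 7 d minus 5 d interaction, the ranges were Fgl1 -0.11 to 0.33 and Orm1 -0.31 to 0.15. For the antibodies at 7 d, the ranges were Fgl1 -0.11 to 0.20, Hp -0.15 to 0.023, Saa3 -1.66 to 1.05 and Lcn2 -0.59 to 1.13. For hormone in control mice, the ranges were Fgl1 -0.40 to 0.043, Hp -0.17 to 0.028 and Saa3 -0.74 to 2.10. For the interaction of antibody and hormone, the ranges were Fgl1 -0.36 to 0.24, Hp -0.10 to 0.25, Saa3 -1.25 to 1.58, Serpina3n -2.04 to 0.15 and Apoe -0.21 to 0.16. For hormone in Jag antibody mice, the ranges were Fgl1 -0.48 to 0.036, Hp -0.15 to 0.18, Saa3 -0.50 to 1.83, Lcn2 -1.07 to 0.33 and Serpina3n -1.27 to 0.92. For the antibodies with hormone, the ranges were Fgl1 -0.34 to 0.26, Hp -0.17 to 0.18, Saa3 -1.56 to 0.92 and Serpina3n -0.49 to 1.03. 

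The replicate numbers in the titles name different mice. For control mice at 7 d with and without hormone, same-numbered mice correlated at -0.32 to 0.64, with a mean of 0.18. There 4 of 5 pairs were over 0.1, and 2 of 5 mice correlated best with their own number. The mean was 0.16 for Jag antibody mice at 7 d with and without hormone. Between 5 d and 7 d it was 0.19 for control and 0.11 for Jag antibody mice. Correlations of differently numbered mice are not given here, so these values cannot decide whether the numbers mark pairs. With the replicate block, the genes passing numbered 0 for the interaction of antibody and hormone and 371 for the 7 d minus 5 d interaction, and the members passing numbered 0 for the 7 d minus 5 d interaction. With the replicate block joined to the length and GC corrections, the genes passing numbered 0 for the interaction of antibody and hormone and 440 for the 7 d minus 5 d interaction, and the members passing numbered 2 for hormone in Jag antibody mice and 0 for the 7 d minus 5 d interaction. With the replicate block, the sign changed to give Apoe 0.0017 for the interaction of antibody and hormone. With the replicate block joined to the length and GC corrections, the sign changed to give Hp 0.44 for hormone in control mice, Serpina3n 0.030 for hormone in Jag antibody mice, Hp -0.094 for the interaction of antibody and hormone and Orm1 0.056 for the 7 d minus 5 d interaction. The Cp call for hormone in control mice was lost with the block and the offsets together (0.66, adjusted p = 0.0615), and the Serpina3n call for the 7 d minus 5 d interaction with the block (3.83, adjusted p = 0.0502). Depth limits Saa3, at 0 to 454 counts per library, and Fgl1, at 13 to 269.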
